A study of Mus musculus with 9 samples.

Results

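Interferon-stimulated genes are the transcripts that cells switch on when they sense interferon. A list of 33 of them was read in the hearts of RORasg/sg and WT mice. The genes were chosen by symbol, and each was represented by the array probe, matched through its RefSeq accession, with the highest mean over the 9 hearts. A probe was matched for 31 of the 33 genes, and all 31 were among the 27773 genes tested over the whole array. Mx1 and Mx2, which encode antiviral dynamin-like GTPases, matched no probe by accession and have no value here. The sg allele (staggerer) is a deletion within Rora, the gene of the nuclear receptor ROR alpha. The 4 RORasg/sg mice carried it on both copies in every cell, so the heart was not the only organ affected. All 9 mice were untreated males of strain C57BL/6, 3 to 4 months old, weaned at 3 weeks and kept on NIH31 diet, and the 5 WT mice differed from the others by genotype as far as the labels say. Total RNA of each whole heart was amplified and hybridised to a single-colour Agilent array, one array per mouse. In RNA from whole tissue, fewer cells of a type and less RNA per cell cannot be told apart.

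Type I interferons bind the receptor pair IFNAR1 and IFNAR2, and the kinases JAK1 and TYK2 then activate the complex ISGF3, which holds STAT2 and IRF9 and binds the interferon-stimulated response element (ISRE) in the promoters of its targets, whereas interferon gamma works through gamma-activated sites (GAS). In the heart these genes are best known for limiting viral infection of cardiomyocytes and for responding to nucleic acids released from injured cells.

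The promoters show what the members share in sequence. RefSeq promoter windows of assembly GRCm38.p6, from 250 bases before to 50 bases after the transcription start, were at hand for 26 members. The ISRE was searched on both strands as GAAA followed, after any 2 bases, by a second GAAA, and it was present in the windows of 15 of the 26 members (57.7%) against 3.99% of 27025 genes. Those 15 were Ifit1, Ifit3, Isg15, Oas1a, Oas3, Stat2, Rsad2, Ddx58, Ifih1, Bst2, Gbp2, Gbp3, Irgm1, Igtp and Cxcl10. The GAS motif, TTCNNNGAA on both strands, was present for 6 members (23.1%) against 9.55% of genes. The 6 were Ifit2, Oas1a, Irf1, Bst2, Igtp and Ifi35. The ROR response element, AGGTCA preceded by AANT, was searched on both strands. It was found for 0 of the 26 members and for 0.259% of all genes, which says only that these letters are not in these windows. The ISRE matches of 6 members whose signals are described in detail are printed here on the strand of the gene, 5′ to 3′, with 20 bases on each side. Capitals mark the matches, which read as a pair of TTTC runs where the motif lies on the other strand.
Ifit1, chr19:34640765-34640833, plus strand: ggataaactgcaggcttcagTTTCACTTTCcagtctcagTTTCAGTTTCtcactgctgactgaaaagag
Ifit3, chr19:34583353-34583436, plus strand: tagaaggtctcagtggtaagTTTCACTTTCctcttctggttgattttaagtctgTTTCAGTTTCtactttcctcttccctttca
Isg15, chr4:156200855-156200916, minus strand: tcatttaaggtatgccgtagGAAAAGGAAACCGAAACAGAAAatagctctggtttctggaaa
Gbp3, chr3:142559979-142560034, plus strand: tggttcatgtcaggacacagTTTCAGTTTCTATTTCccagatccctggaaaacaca
Bst2, chr8:71537567-71537622, minus strand: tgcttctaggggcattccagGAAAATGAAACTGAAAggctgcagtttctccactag
Rsad2, chr12:26456543-26456592, minus strand: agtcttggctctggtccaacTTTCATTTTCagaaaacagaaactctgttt
Ifit1 and Ifit3 have 2 separate matches each. In Isg15, Gbp3 and Bst2 the matches overlap, 3 in Isg15 and 2 in each of the others. Rsad2 has 1. A match is a description of the letters and not a measurement of binding.

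Values are log2 of the processed intensity minus the 75th percentile of the same array, so 0 is the level below which 75% of an array's spots lie. That percentile was 436 to 681 intensity units in the WT arrays. It was 774 in RORasg/sg 1, 293 in RORasg/sg 2, 390 in RORasg/sg 3 and 263 in RORasg/sg 4. The 4 arrays under 500 units are WT 4 and RORasg/sg 2, 3 and 4. They are called the dimmer arrays below, and the other 5 the brighter ones, so 3 of the 4 RORasg/sg hearts but only 1 of the 5 WT hearts lie on dimmer arrays. Rora itself checks the labels. Its probe of highest mean over the 9 hearts read 1.51 to 3.29 in WT hearts and 0.08 in RORasg/sg 1. In the other RORasg/sg hearts this probe read -2.71 to -1.01, and the difference between genotypes was -4.13 (SE 0.61). Its adjusted p was 0.224 (limma, Benjamini-Hochberg over all 27773 genes), and the groups did not overlap. Where that probe lies relative to the deletion was not analysed here, so it is only a partial check. All 8 cardiomyocyte markers were well above background on every array, as the heart label calls for.

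No member passed the test between genotypes. With limma and adjustment over all genes, 0 of the 31 members were called higher and 0 lower at an adjusted p of 0.05, against 0% and 0.0036% of all genes, the latter being 1 gene. The adjusted p of the members ran from 0.383 to 0.963. At an unadjusted p under 0.05, 6 members read higher in RORasg/sg (Ifi44, Ifit3, Dhx58, Zbp1, Isg15 and Oasl2) and 2 read lower (Rsad2 and Cmpk2), where 4.89% of all genes read higher and 6.64% lower. In 0 members did every RORasg/sg heart lie above every WT heart, against 1.1% of all genes, and in 0 did every one lie below, against 1.71%. The mean was higher in RORasg/sg for 22 members and lower for 9, and 66.6% of all genes also had the higher mean. The median difference of the members was 0.35 on the log2 scale beside 0.40 for all genes, and 13 of 31 members lay above the median of all genes, where 50% of genes do by construction. That side of the median turned with the setting. With array brightness as a covariate 23 of 31 lay above it, where the members' median was 0.42 and that of all genes 0.0084. Within the 5 brighter arrays 26 of 31 did, with the slide as a block 18, without RORasg/sg 2 19 and without RORasg/sg 1 12. RORasg/sg 1 is the only RORasg/sg heart on a brighter array, so brightness and that heart cannot be told apart.

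**Figure D1:**
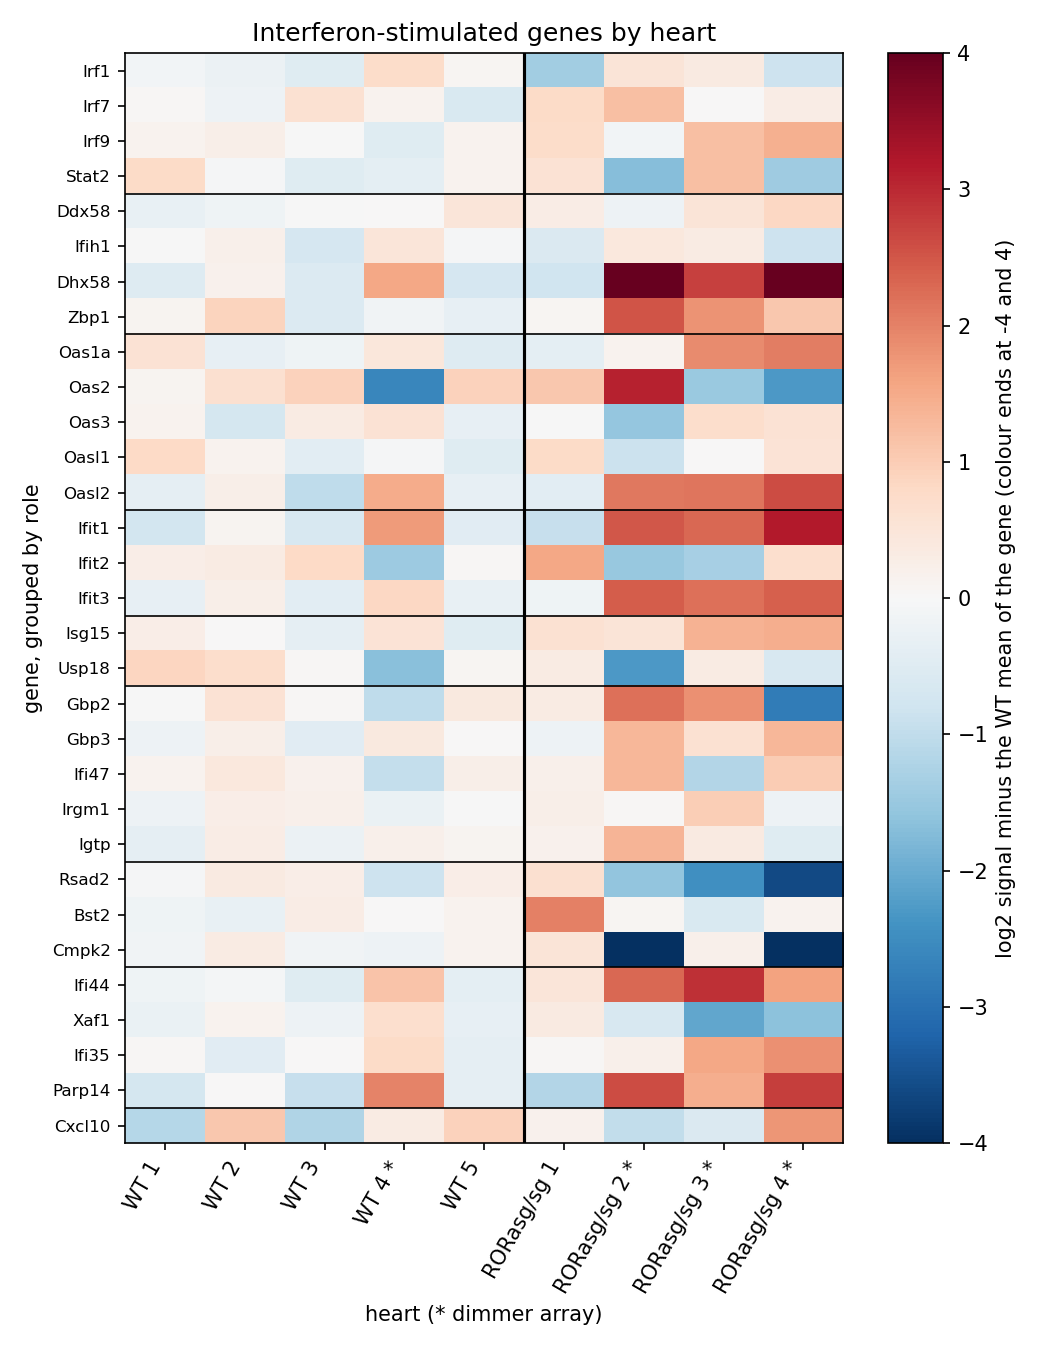
Log2 signal of the 31 measured genes (rows, grouped by role with lines between roles) in the 9 hearts (columns), each minus the WT mean of the gene, with colours ending at -4 and 4 and an asterisk on the 4 dimmer arrays. RORasg/sg 1 looks unlike the other RORasg/sg hearts in Dhx58, Ifit1, Ifit3, Oasl2 and Parp14, and WT 4 leans the same way as RORasg/sg 2 to 4 in these rows.

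The IFIT proteins, which bind viral RNA and block its translation, had 2 of 3 members higher in the mean. Ifit1 read -1.13, -0.29, -1.03, 1.30 and -0.84 in WT 1 to 5, and -1.31, 2.09, 1.91 and 2.78 in RORasg/sg 1 to 4. RORasg/sg 2, 3 and 4 were above every WT heart, but RORasg/sg 1 was the lowest of all 9 and WT 4 the highest of its group. The difference was 1.77 (SE 0.81, adjusted p 0.42), a 3.40-fold higher geometric mean. Ifit3 read 1.58, 2.16, 1.51, 2.74 and 1.61 in WT and 1.76, 4.35, 4.11 and 4.31 in RORasg/sg, a difference of 1.71 (SE 0.57, adjusted p 0.396). RORasg/sg 1 again lay among the WT hearts, far below the other RORasg/sg hearts. Ifit2 went another way: -1.45, -1.37, -0.91, -3.18 and -1.66 in WT and -0.16, -3.23, -3.04 and -1.04 in RORasg/sg. On this probe RORasg/sg 1 was the highest heart, and WT 4, RORasg/sg 2 and RORasg/sg 3 were the lowest. The difference of its means was -0.15 (SE 0.70). A second Ifit2 probe gave another order, with WT 4 the highest heart (-1.40) and WT 5 the lowest (-3.97).

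Among the cytosolic sensors of nucleic acid, 3 of 4 had the higher mean. Dhx58, which encodes the RNA helicase LGP2, had the largest positive difference of any member, 2.60 (SE 0.95, adjusted p 0.406). It read -1.33, -0.65, -1.36, 0.74 and -1.49 in WT hearts and -1.6, 3.18, 1.92 and 3.64 in RORasg/sg hearts. RORasg/sg 1 was the lowest of all, so the groups overlapped although the other RORasg/sg hearts stood over every WT heart. Zbp1, a sensor of Z-form nucleic acid linked to necroptosis, read -1.28, -0.51, -1.97, -1.54 and -1.73 in WT and -1.32, 1.11, 0.38 and -0.33 in RORasg/sg. Unlike Dhx58, it was not high in WT 4. Its difference was 1.37 (SE 0.55, adjusted p 0.42). Ddx58, which encodes the viral RNA sensor RIG-I, differed by 0.35 (SE 0.40), and Ifih1, which encodes MDA5, a sensor of long double-stranded RNA, by -0.16 (SE 0.46). On these probes both sensors lay within 1 SE of no difference. The other Ddx58 probes differed by -3.0, -0.67 and -0.29, and a second Ifih1 probe by -0.72. None of these other probes was well above background on all 9 arrays.

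Oligoadenylate synthetases make the second messenger that activates RNase L, and the OAS-like genes Oasl1 and Oasl2 are grouped with them here. Oasl2 read 0.92, 1.5, 0.26, 2.77 and 0.94 in WT and 0.85, 3.40, 3.41 and 3.89 in RORasg/sg. As in Ifit3, RORasg/sg 1 sat among the brighter WT arrays and WT 4 was the top WT heart. The difference was 1.61 (SE 0.68, adjusted p 0.42). Oas1a read -0.34, -1.24, -1.07, -0.43 and -1.43 in WT and -1.28, -0.77, 0.99 and 1.14 in RORasg/sg, with only RORasg/sg 3 and 4 above the WT hearts. Its difference was 0.92 (SE 0.58). Oas2 ranged from -6.88 to -3.34 in WT and from -6.57 to -1.20 in RORasg/sg and differed by 0.09 (SE 1.07). It exceeded background clearly in 4 of 5 WT and 2 of 4 RORasg/sg hearts, so its low values are near the limit of the array. Oas3 and Oasl1 differed by -0.07 (SE 0.55) and 0.11 (SE 0.47).

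Isg15 encodes the ubiquitin-like modifier that is attached to proteins during the interferon response, and Usp18 the protease that removes it and also dampens IFNAR2 signalling. Isg15 read -2.92, -3.17, -3.54, -2.62 and -3.65 in WT and -2.58, -2.66, -1.79 and -1.72 in RORasg/sg. The groups overlapped by 1 heart, WT 4, which lay between RORasg/sg 1 and RORasg/sg 2. The difference was 0.99 (SE 0.42, adjusted p 0.42), a 1.99-fold higher geometric mean. Usp18 read -3.29 to -0.74 in WT and -3.90 to -1.27 in RORasg/sg and differed by -0.57 (SE 0.67), so the modifier and its protease had means of opposite direction, neither past the threshold.

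Rsad2 and Cmpk2 are neighbouring interferon-induced genes that act on nucleotides. Rsad2 encodes viperin, which makes a chain-terminating CTP analogue, and Cmpk2 a mitochondrial nucleotide kinase. Rsad2 read 2.77, 3.20, 3.10, 1.98 and 3.08 in WT and 3.46, 1.23, 0.39 and -0.77 in RORasg/sg. RORasg/sg 1 was the highest heart of all, the other RORasg/sg hearts were the lowest, and WT 4 was the lowest WT heart, the mirror image of Ifit1. The difference was -1.75 (SE 0.72, adjusted p 0.42). Cmpk2 read 0.32, 0.77, 0.31, 0.26 and 0.59 in WT and 0.96, -5.48, 0.65 and -6.0 in RORasg/sg. Only RORasg/sg 2 and 4 were low, and in those hearts Cmpk2 was not well above background, while RORasg/sg 1 and 3 lay at or above most WT hearts. Its difference, -2.92 (SE 1.32, adjusted p 0.42), therefore rests on those hearts. Bst2, which encodes tetherin, a membrane protein that holds budding virus, read -0.50, -0.63, -0.03, -0.31 and -0.20 in WT and 1.68, -0.24, -0.95 and -0.20 in RORasg/sg. Only RORasg/sg 1 stood above the WT range, and the difference was 0.40 (SE 0.54).

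**Figure D2:**
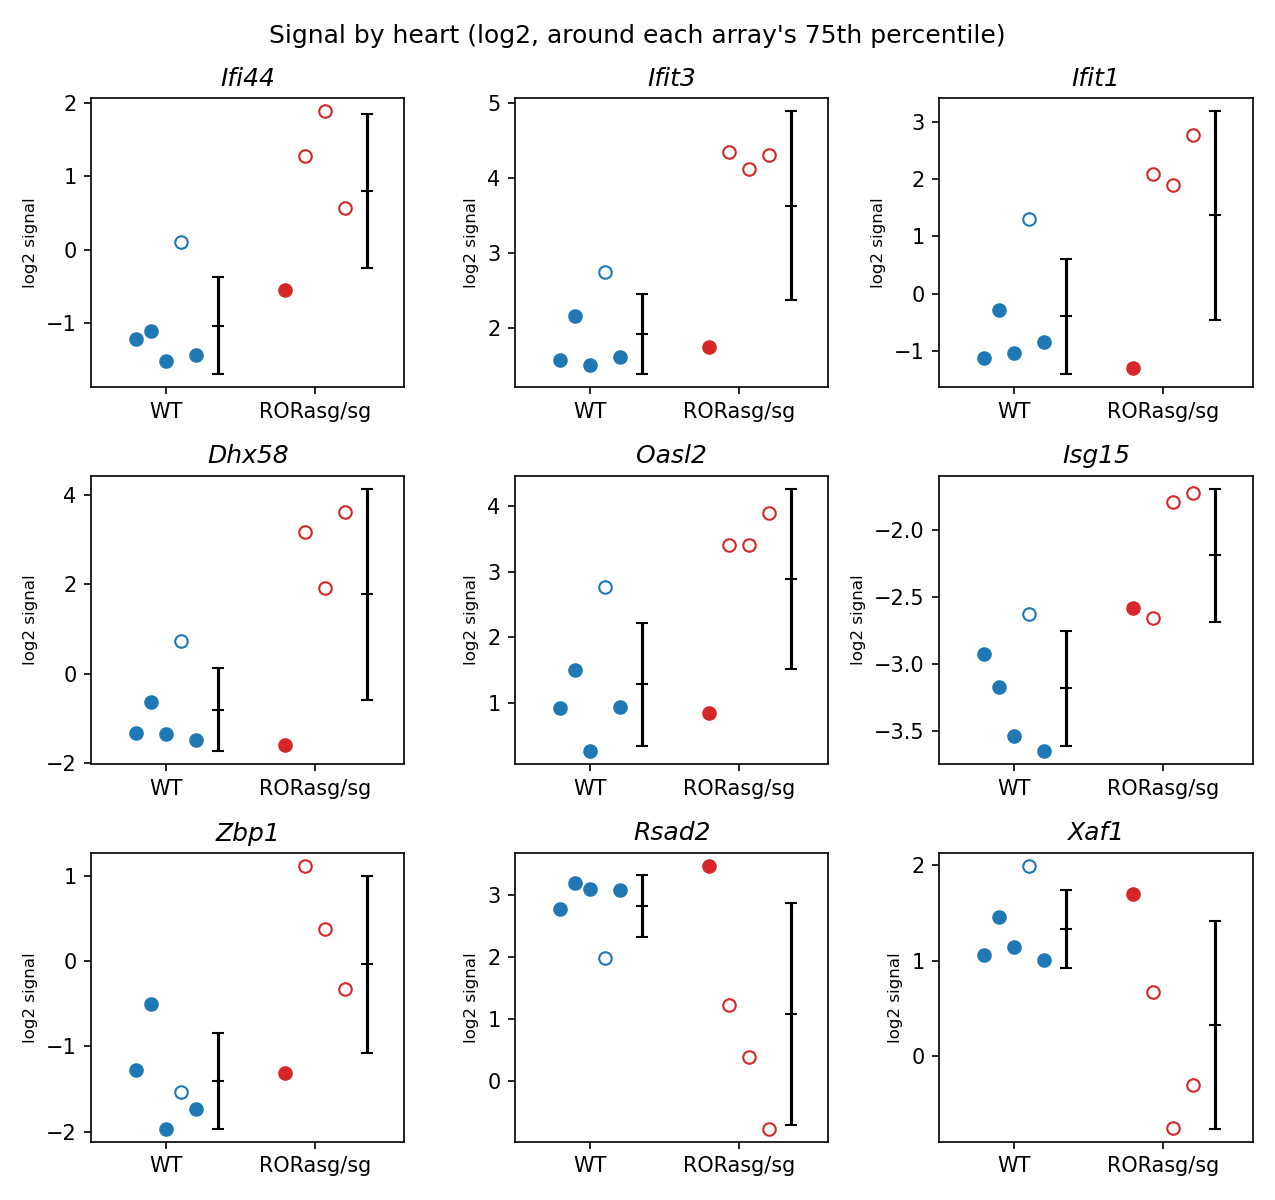
Log2 signal of 9 genes in each heart (points, WT blue and RORasg/sg red, open points for the 4 dimmer arrays), with the mean and SD of each group as a bar beside them and a separate vertical axis for each gene. In Ifit1, Dhx58 and Oasl2 the filled RORasg/sg point (heart 1) lies among or below the filled WT points, whereas in Rsad2 it is the highest point of all.

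Of the remaining effectors, Ifi44, an interferon-induced protein reported to slow cell proliferation, had the smallest p of all members. It read -1.21, -1.11, -1.51, 0.10 and -1.43 in WT and -0.55, 1.28, 1.89 and 0.57 in RORasg/sg. All RORasg/sg hearts exceeded the 4 brighter WT hearts, and WT 4 exceeded RORasg/sg 1. The difference was 1.83 (SE 0.57, unadjusted p 0.00748, adjusted p 0.383), a 3.55-fold higher geometric mean. Parp14, an ADP-ribosyltransferase, read 0.25, 0.96, 0.04, 2.92 and 0.59 in WT and -0.21, 3.58, 2.40 and 3.73 in RORasg/sg. WT 4 lay within the range of RORasg/sg 2 to 4, and RORasg/sg 1 was the lowest heart of all. Its difference was 1.42 (SE 0.84, adjusted p 0.421). Ifi35, which acts in innate immune signalling, differed by 0.91 (SE 0.50), with WT hearts from -2.56 to -1.33 and RORasg/sg hearts from -2.04 to -0.28. Xaf1, a pro-apoptotic antagonist of XIAP, read 1.06, 1.46, 1.14, 1.99 and 1.0 in WT and 1.69, 0.68, -0.76 and -0.31 in RORasg/sg. RORasg/sg 2, 3 and 4 were below every WT heart, and RORasg/sg 1 was above all but WT 4. The Xaf1 difference was -1.0 (SE 0.54, adjusted p 0.42). Cxcl10, the chemokine that draws T cells bearing CXCR3, ranged from -4.69 to -2.41 in WT and -4.46 to -1.73 in RORasg/sg and differed by 0.09 (SE 0.69).

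The interferon-inducible GTPases attack pathogen-containing vacuoles, and all 5 that were measured had the higher mean in RORasg/sg, as 66.6% of all genes did. With no scaling between arrays the sign turned for 4 of them, Gbp2 (-0.18), Ifi47 (-0.23), Igtp (-0.22) and Irgm1 (-0.30), and a second Irgm1 probe differed by -0.72. Gbp3 differed by 0.77 (SE 0.45), the most of the 5 and the only one of them above the median of all genes. It read 0.91 to 1.74 in WT, 1.13 in RORasg/sg 1 and 1.96 to 2.68 in the other RORasg/sg hearts. Gbp2 differed by 0.39 (SE 0.88), and its RORasg/sg hearts were split, with 1.54 and 1.14 in RORasg/sg 2 and 3 but -3.48 in RORasg/sg 4, the lowest of all. Igtp differed by 0.35 (SE 0.44), Ifi47 by 0.34 (SE 0.57) and Irgm1 by 0.27 (SE 0.42). Each of these last 3 had overlapping groups and a difference smaller than its SE.

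The transcription factors among the members carry the signal from receptor to promoter. Irf9, the DNA-binding partner in ISGF3, differed by 0.82 (SE 0.45) and read -1.54 to -0.82 in WT and -1.14 to 0.38 in RORasg/sg. Stat2, the other ISGF3-specific subunit, differed by -0.34 (SE 0.63) and cleared the background limit in only 2 of 4 RORasg/sg hearts. Irf7, which amplifies the induction of interferon genes, differed by 0.57 (SE 0.44), with -4.63 to -3.43 in WT and -4.0 to -2.83 in RORasg/sg. Irf1, a factor induced mainly by interferon gamma, read 3.35, 3.24, 3.00, 4.22 and 3.55 in WT and 2.09, 3.99, 3.85 and 2.64 in RORasg/sg. RORasg/sg 1 and 4 were below every WT heart and RORasg/sg 2 and 3 within the WT range, and the difference was -0.33 (SE 0.47).

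**Figure D3:**
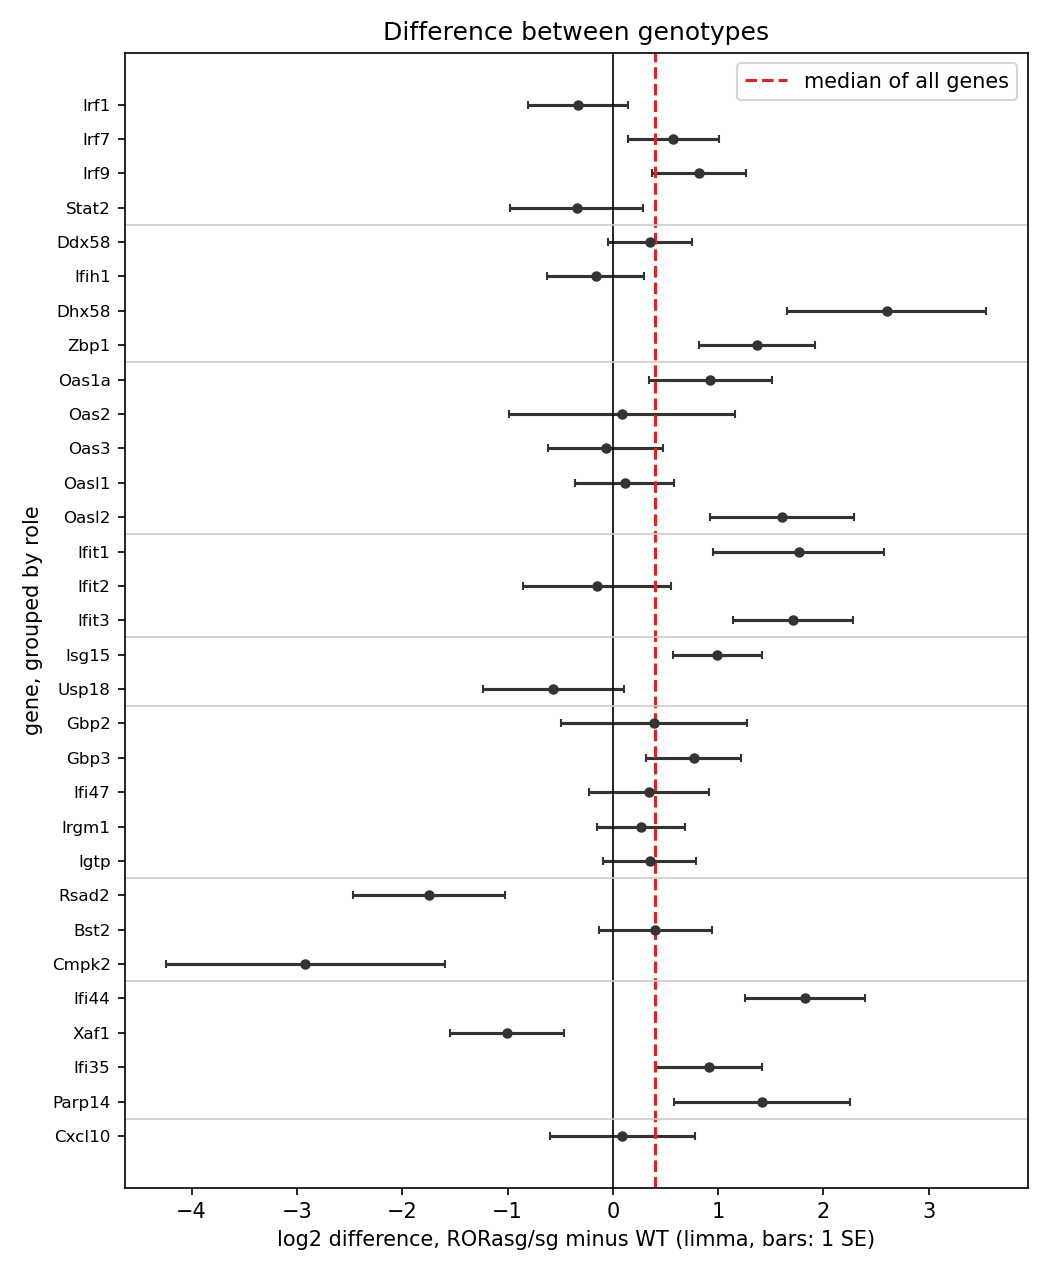
Log2 difference (RORasg/sg minus WT) of each measured gene from limma (points, bars of 1 SE), grouped by role, with a solid line at 0 and a dashed line at the median of all genes (0.40). Dhx58 lies farthest to the right at 2.60 and Cmpk2 farthest to the left at -2.92, and none passed the adjusted threshold.

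The pattern over hearts repeated across members. In 9 of the 31 (29%) RORasg/sg 2, 3 and 4 were all above RORasg/sg 1 and all 4 brighter WT hearts: Dhx58, Gbp3, Ifi35, Ifi44, Ifit1, Ifit3, Oasl2, Parp14 and Zbp1. Over all genes the same order held for 38.6%, a larger share. In 8 of the 9, all but Zbp1, WT 4, the dimmer WT array, was also above the 4 brighter WT hearts. Over all genes that held for 7500 of the 10688 with this order. The reverse order, with RORasg/sg 2, 3 and 4 all below, held for Rsad2 and Xaf1 (6.45% of members) and for 13.1% of all genes. WT 4 was below the brighter WT hearts for Rsad2 but not for Xaf1, and for 2640 of the 3633 genes with the reverse order. Array brightness thus went along with these orders of hearts, apart from WT 4 in Zbp1 and Xaf1, and did so over the array as a whole. Brightness, genotype and the single heart RORasg/sg 1 cannot be told apart here, and no cause was tested. Over the 465 pairs of members, the correlation across the 9 hearts had a median of 0.04 and quartiles of -0.31 and 0.38, so as a list the members did not follow one order of hearts.

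Compared within the 5 brighter arrays, where RORasg/sg 1 stands alone against WT 1, 2, 3 and 5, most of the large differences shrank or turned. Ifit1 differed by -0.48, Ifit3 by 0.04, Dhx58 by -0.39, Oasl2 by -0.06, Parp14 by -0.67 and Rsad2 by 0.43. Ifi44 and Isg15 kept their direction, at 0.77 (adjusted p 0.162) and 0.74 (adjusted p 0.305). There Bst2 read higher in that heart by 2.02 (adjusted p 0.0207) and Irf1 differed by -1.20 (adjusted p 0.0307), where 1.36% of all genes were called higher and 3.33% lower. These p-values set 1 heart against the spread of 4 WT hearts, with the lone heart assumed to vary as they do, so they speak of RORasg/sg 1 and not of the genotype. Bst2 read within or below the WT range in the other RORasg/sg hearts. In the 4 dimmer arrays, where WT 4 alone stood against RORasg/sg 2 to 4, Dhx58 differed by 2.17, Zbp1 by 1.93, Ifit3 by 1.51, Ifi44 by 1.14, Ifit1 by 0.96 and Rsad2 by -1.70. None of those passed, and the smallest adjusted p of a member was 0.682.

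**Figure D4:**
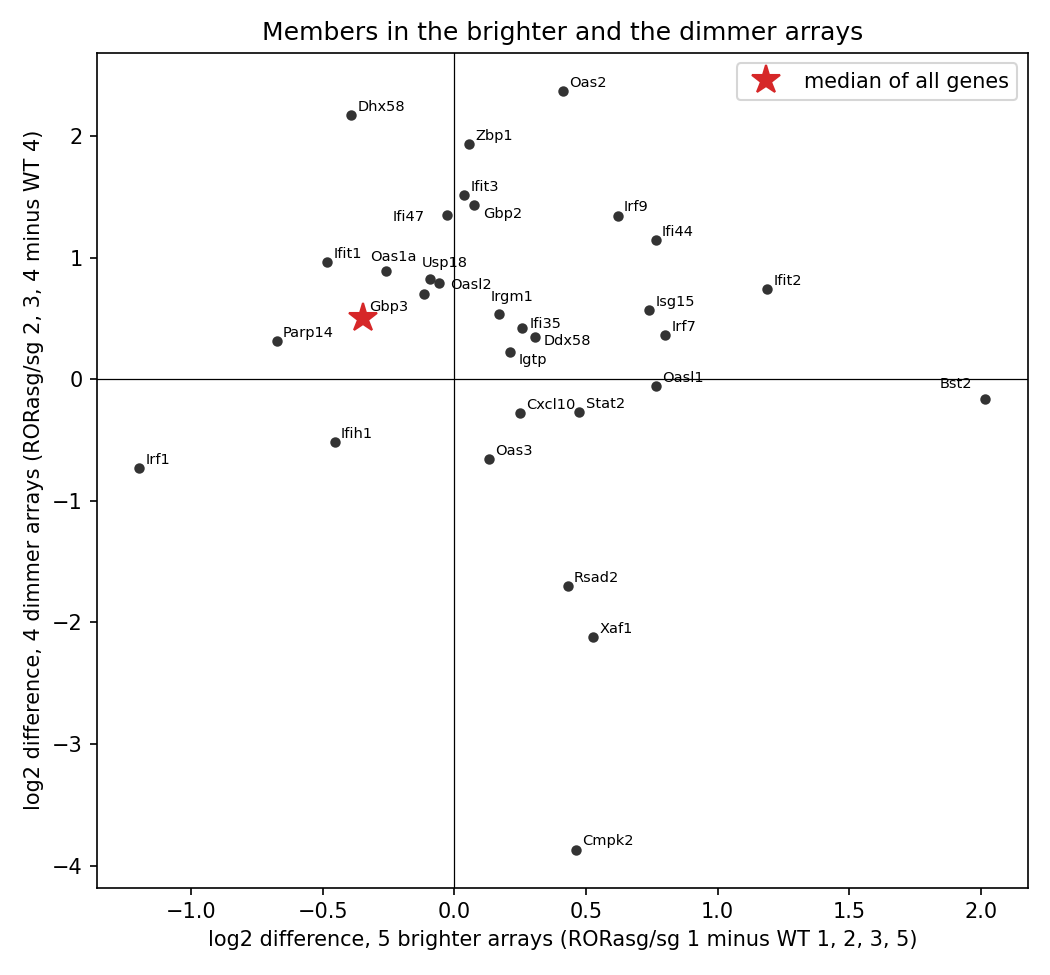
Log2 difference of each gene within the 4 dimmer arrays (vertical) against the difference within the 5 brighter arrays (horizontal), with the median of all genes as a star at -0.35 and 0.50. Bst2 and Irf1 lie at the right and left ends (2.02 and -1.20), and Dhx58, Ifit1 and Oasl2 are positive on the vertical axis and below 0 on the horizontal one.

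Leaving out RORasg/sg 1 changed the count of calls. Then 12 of 31 members passed, 9 higher (Dhx58, Gbp3, Ifi44, Ifit1, Ifit3, Isg15, Oasl2, Parp14 and Zbp1) and 3 lower (Cmpk2, Rsad2 and Xaf1), while 28.5% of all genes were called higher and 8.92% lower. Those shares are of the same order as the members' own. Without that heart Dhx58 differed by 3.73 (adjusted p 0.00624), Ifit3 by 2.33 (adjusted p 0.00472), Ifi44 by 2.28 (adjusted p 0.0128) and Rsad2 by -2.54 (adjusted p 0.0106). The median of the members was then 0.39 and that of all genes 0.68. Without WT 4, the only dimmer WT array, 0 members passed in limma, and 0% of all genes were called higher and 0% lower. The median of the members was then 0.36 and that of all genes 0.46. Set against the mean of the WT hearts, the median member lay 0.63 above the median gene in RORasg/sg 1, and -0.11, -0.04 and -0.09 from it in RORasg/sg 2, 3 and 4. The same quantity ran from -0.15 to 0.30 among the WT hearts, each set against the other WT hearts. RORasg/sg 1 was therefore the one heart outside the WT span, on a scale where its median gene lay at -0.39.

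More than 1 probe on the array represented 11 members, and in 8 of them the probes gave differences of opposite sign. For 5 members the probes were more than 1 apart on the log2 scale. The Rsad2 probe used above gave -1.75, and its others gave 0.28 and 0.44. Cmpk2 gave -2.92 and 0.05, Parp14 from -0.91 to 1.42, and Oas3 -0.07 and 1.65. One Ddx58 probe read -2.57 to -1.42 in WT and -0.41, -6.76, -6.27 and -5.37 in RORasg/sg, a difference of -3.0. The Ddx58 probe used above, of highest mean over all hearts, differed by 0.35. The probe that differed by -3.0 cleared the background limit in 1 of 4 RORasg/sg hearts. Its WT mean was the higher of the pair, -1.70 against -2.10, so only its low RORasg/sg values placed it below the probe used. A direction for these genes therefore holds for the probe named and not for the gene.

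**Figure D5:**
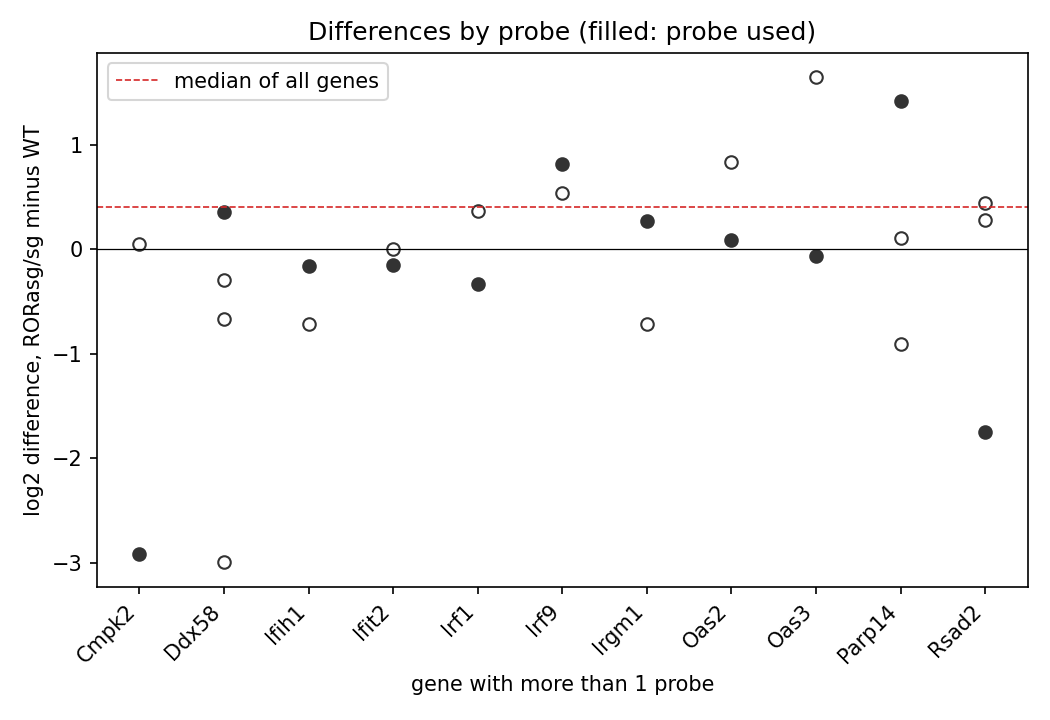
Log2 difference (RORasg/sg minus WT) of every probe for the 11 genes with more than 1 probe, filled where the probe was the one used, with a solid line at 0 and a dashed line at the median of all genes. The probes of Ddx58 run from -3.0 to 0.35 and those of Cmpk2 from -2.92 to 0.05.

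The differences of members with and without the ISRE letters spanned overlapping ranges, and the sets were not tested against each other. The 15 with a match ran from -1.75 to 1.77 with a median of 0.35, and 11 of them were higher in the mean. The 11 without one ran from -2.92 to 1.83 with a median of 0.34, and 7 were higher. Dhx58, Usp18, Zbp1, Parp14 and Oas2 had no promoter window in the table and are in neither count.

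Upstream of the members, none of the 6 receptor chains passed the test. The type I chains Ifnar1 and Ifnar2 differed by -0.09 (SE 0.52) and -0.87 (SE 0.47), and the type III chains Ifnlr1 and Il10rb by -0.20 (SE 0.43) and 1.04 (SE 0.60). The chains of the interferon gamma receptor had means of opposite direction, with Ifngr1 at 1.08 (SE 0.58) and Ifngr2 at -2.11 (SE 0.94, adjusted p 0.42). Ifngr2 read 3.38, 3.50, 4.16, 1.75 and 4.00 in WT and 4.49, 1.53, -0.62 and -0.39 in RORasg/sg, with RORasg/sg 1 highest and WT 4 the lowest WT heart, as in Rsad2. Of 11 interferon ligand genes 8 had a probe and 6 were tested. The mean was higher for 5 and lower for 1, and 66.6% of all genes also had the higher mean. Of the 5, Ifnb1 and Ifnk were well above background in only 2 and 1 of 5 WT hearts, and each in 3 of 4 RORasg/sg hearts.

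Among all 98 further interferon pathway genes listed, 84 were tested and 0 passed in limma, with 59 higher and 25 lower in the mean, where 66.6% of all genes were higher, and a median of 0.44 beside 0.40 for all genes. Before adjustment, 4 of the 84 read higher and 6 read lower with p under 0.05, shares near the 4.89% and 6.64% of all genes. Slfn2, a regulator of T cell quiescence, was the 1 gene of the 84 whose RORasg/sg hearts all lay above the WT hearts, a share near the 1.1% of all genes. It read -3.81 to -3.01 in WT and -2.50 to -2.08 in RORasg/sg, a difference of 1.07 (SE 0.37, adjusted p 0.398). Rtp4, a chaperone and interferon-induced antiviral protein, differed by 1.32 (SE 0.55). The others of smallest p read lower: Ifi205, of the interferon-inducible HIN-200 family, differed by -2.93 (SE 0.65, adjusted p 0.345). Gbp6 and Gbp4, guanylate-binding proteins like Gbp2 and Gbp3, differed by -2.0 (SE 0.74) and -1.77 (SE 0.60). Eif2ak2, which encodes the double-stranded RNA-activated kinase PKR, differed by -1.48 (SE 0.55).

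Markers of other cell types also varied among the hearts, and their part in the members' values was not tested. Sums of linear signal, in units of each array's 75th percentile, are given by range. Such a sum is set mainly by its most intense markers, so it does not measure the number of the cells named. The 8 cardiomyocyte markers summed to 681 to 810 in WT and 252 to 784 in RORasg/sg, and RORasg/sg 3 and 4 were the low ones at 258 and 252. The 8 macrophage markers summed to 12.2 to 33.2 in WT and 13.3 to 39.4 in RORasg/sg, and 4 had the higher mean and 4 the lower. The 5 measured markers of monocytes and neutrophils summed to 26.9 to 69.9 in WT and 30.4 to 113 in RORasg/sg. Ly6c2 was by far the most intense of them, and 3 had the higher mean and 2 (Ccr2 and S100a8) the lower. The 7 markers of T and NK cells summed to 1.19 to 2.15 and 0.966 to 3.69. The 4 B cell markers summed to 1.65 to 2.78 in WT, 1.11 in RORasg/sg 1 and 8.19 to 12.5 in RORasg/sg 2, 3 and 4. Endothelial markers (7) summed to 23.7 to 41.2 in WT and 25.2 to 65.9 in RORasg/sg. Yet 5 of those 7 had the lower mean in RORasg/sg, with a median difference of -1.29. The 2 with the higher mean were Cdh5 (0.59), the most intense of them, and Emcn (1.20). Fibroblast markers (7) summed to 50.8 to 87.0 in WT and 67.6 to 144 in RORasg/sg. Of these, 4 had the higher mean and 3 the lower, with a median difference of 0.03. Pericyte and smooth muscle markers (5) summed to 61.5 to 100.5 and 34.6 to 71.4, and erythroid markers (3 measured) to 6.22 to 11.2 and 1.24 to 22.7. For plasmacytoid dendritic cells, the main makers of type I interferon, the sum without the member Bst2 was 5.30 to 8.90 in WT and 2.23 to 8.94 in RORasg/sg. Tcf4, by far the most intense of its 4 markers, differed by -0.75, whereas Siglech, Ccr9 and Klk1 differed by 0.69, 0.39 and 0.88. Siglech read only -5.61 to -4.84 in WT and -5.59 to -3.52 in RORasg/sg. WT 4 had the highest WT sum in every list but the cardiomyocyte and endothelial ones, although single markers went the other way, such as the macrophage genes Cd68 and C1qa, which read -3.91 and -3.0 there, the lowest among the WT hearts. RORasg/sg 1 had the lowest sum of all hearts for B cells and for T and NK cells and the highest for erythroid cells.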

How the data were processed

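Per the file headers, Feature Extraction 12.0.0.7 read the arrays (design 014868, grid build mm9). The deposited intensity of each spot is the authors' processed signal, which is linear, has background subtracted and carries no scaling between arrays. The deposited value table held the same numbers. Per the labels' protocols, 70 ng of total RNA was amplified and 5 ug of cDNA labelled with Cy3. Amplification can widen the spread between arrays.

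Of 43379 non-control spots, 758 readings with an outlier flag over the 9 arrays were left out, and spots of a probe were averaged. Each array's 75th percentile was subtracted on the log2 scale from its intensities. A probe was kept if it was well above background on 4 or more arrays (36402 of 41174), and the kept probe of highest mean stood for its gene. Accessions in RefSeq GRCm38.p6 named 28223 probes. The fit used limma 3.58.1 with lmFit and trended eBayes (R 4.3.3), Benjamini-Hochberg adjustment and a threshold of 0.05, and was also tested on simulated data. Those data had independent noise for each gene and no brightness shared by an array, so they do not bear on the dimmer arrays here. The other tools were data.table (version 1.17.8), Python 3.11.15 and matplotlib 3.10.9. Precision is limited by the number of arrays. The share of probes well above background was 80.7% to 87.7%. All members were described, with every receptor, the ligands as a count and the 6 further pathway genes of smallest p. One further result is not reported here. The members and lists were chosen with earlier results of these data known. Alternatives covered scaling, background, filter, probe choice, slide, brightness, the replicate number and single hearts.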

Additional observations from a re-analysis of the deposited data

Results flagged for a closer look

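In 5 of 62 groups of hearts, each a gene in a genotype, 1 heart stood apart: its gap to the nearest other heart, over the range of the group, was above Dixon's 95% critical value. Chance sets apart about 1 in 20 groups, so a count near this one is common. Of the 5, 2 were RORasg/sg 1 and 3 were WT 4, and no cause was tested. Ifit3, an RNA-binding IFIT protein, was 1.76 in RORasg/sg 1 and 4.11 to 4.35 in the other RORasg/sg hearts. Oasl2 was 0.85 in that heart and 3.40 to 3.89 in the others. In WT 4, Ifi44 was high at 0.10, where the other WT hearts read -1.51 to -1.11. Ifi47, an interferon-inducible GTPase, was low there at -1.95 against -0.84 to -0.55. Oas2 was low there too, at -6.88 against -4.16 to -3.34, and not well above background.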

How the results depend on the processing

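All of the alternatives had been listed with earlier results of these data known. Over 24 alternatives to each member's difference (23 for 4 members), 647 values kept direction and side of the threshold, 14 passed the threshold and 79 changed sign, and the causes were not tested. Members called stayed at 0 of 31 except within the brighter arrays (2, with 7 further pathway genes, and 1 RORasg/sg heart) and without RORasg/sg 1. Leaving out 1 heart gave 0 to 12 members, 0 to 31 further pathway genes and 0 to 10398 genes over the array, the high values being without RORasg/sg 1. Over the whole array 1 gene was called, 2 with quantile normalization, 3 with no scaling and 1303 within the brighter arrays. It was 0 with normexp background, probes above background on all arrays, the mean of kept probes, the slide as a block, within slide 1 or 2 and within the dimmer arrays. The median of the members was 0.54 within the dimmer arrays, -0.22 with no scaling (all genes -0.17, so scaling sets the sign) and 0.36 to 0.60 leaving out 1 heart. Minus the median of all genes it was 0.29 within slide 1, 0.56 within the brighter arrays, 0.41 with brightness as a covariate and -0.29 to 0.29 leaving out 1 heart.

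Within the brighter arrays the sign turned for Cmpk2 (0.46), Dhx58 (-0.39), Gbp3 (-0.12), Ifi47 (-0.029), Ifit1 (-0.48), Ifit2 (1.19), Oas1a (-0.26), Oas3 (0.13), Oasl2 (-0.057), Parp14 (-0.67), Rsad2 (0.43), Stat2 (0.48) and Xaf1 (0.53). With brightness as a covariate it turned for Cxcl10 (-0.21), Ifit2 (0.70), Parp14 (-0.18), Stat2 (0.43) and Usp18 (0.30). In the dimmer arrays it turned for Bst2 (-0.16), Cxcl10 (-0.28), Ifit2 (0.74), Oasl1 (-0.060) and Usp18 (0.82). With no scaling, which leaves array brightness in the values, it turned for Bst2 (-0.17), Cxcl10 (-0.48), Ddx58 (-0.22), Gbp2 (-0.18), Ifi47 (-0.23), Igtp (-0.22), Irgm1 (-0.30), Oas2 (-0.48) and Oasl1 (-0.46). With quantile normalization it turned for Cxcl10 (-0.020), Oas2 (-0.14) and Oasl1 (-0.033), and with normexp for Ifit2 (0.14), Oas3 (0.34) and Stat2 (0.28). With the mean of kept probes it turned for Ddx58 (-0.90), Irf1 (0.017), Irgm1 (-0.23) and Oas3 (0.79). Within slide 1 it turned for Cxcl10 (-0.37), Oas1a (-0.23) and Oasl1 (-0.51). Within slide 2 it turned for Bst2 (-0.41), Gbp2 (-0.0069), Ifit2 (0.0037), Igtp (-0.047), Irf7 (-0.21), Oas2 (-1.05), Oas3 (0.20), Stat2 (0.32) and Usp18 (0.67). With the slide as a block Oasl1 was -0.0033.

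Leaving out 1 heart in turn, the sign turned for Ifit2 (-0.72 to 0.30), Oas2 (-0.91 to 0.88), Oas3 (-0.33 to 0.43), Oasl1 (-0.11 to 0.44), Irf1 (-0.62 to 0.019), Stat2 (-0.86 to 0.11), Ifih1 (-0.36 to 0.062), Usp18 (-0.99 to 0.011), Bst2 (-0.13 to 0.74), Gbp2 (-0.22 to 1.46) and Cxcl10 (-0.47 to 0.44).

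The replicate numbers did not pair the hearts: the correlations of same-numbered deviations from the group means were 0.046, -0.0069, -0.33 and 0.39, and only pair 4 matched best within its own number. With the replicate number as a block, 9 genes over the array and 0 members were called, and Oasl1 was -0.0033.

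The array limits what dim members can show. Of the 31, 27 were well above background on all 9 arrays, and Cmpk2, Oas2, Oas3 and Stat2 were not.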
